A study of Mus musculus with 9 samples.

Results

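Fam159b, Nccrp1, Entpd3, Podxl, Abhd6, D330045A20Rik and 1700097N02Rik are 7 of the 23285 genes measured by RNA sequencing in immature erythroid cells of mouse bone marrow. They were chosen by their group values: near 0 in control cells and higher in both populations of cells that had lost Trim28. All 7 names were found in the gene column of the authors' deposited table, each once. KOb cells were CD71(hi)TER119- with 1 to 4% of the gene left intact, and KOa cells were CD71(hi)TER119+ with 5 to 8% left intact, both from TRIM28(flox/flox):Mx1Cre mice. FFa, the control, was CD71(hi)TER119+ cells from TRIM28(flox/flox) mice without Cre. All mice were on a C57BL/6 background, and each group held 3 libraries. The mutant mice got 5 injections of poly(I:C) to switch on Mx1Cre and were studied 2 weeks later. Neither the ages of the mice nor an injection of the FFa mice is stated in the labels.

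TRIM28 is a corepressor without DNA binding of its own. KRAB zinc finger proteins carry it to specific sequences, many of them in endogenous retroviruses, where its partners, among them the histone methyltransferase SETDB1, lay down repressive chromatin. Mx1Cre answers to interferon in many cell types, so in these mice the deletion is not limited to erythroid cells. TER119 appears on erythroid cells as they mature, while CD71, the transferrin receptor, marks the younger ones. KOb therefore differs from KOa in the sort gate as well as in the degree of deletion, and these cannot be told apart. KOb differs from FFa in the gate too, and only KOa and FFa share one. Cre and the deletion likewise differ together between both mutants and FFa.

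The authors deposited 1 FPKM value per gene and group (fragments scaled to transcript length and to the size of the library). No value per library was used here, so no SD can be given and the depth of each library is unknown. Trim28 itself stood at 4.76 FPKM in KOb, 6.64 FPKM in KOa and 26.0 FPKM in FFa. The erythroid markers found in the table were all above 1 FPKM in at least 1 group, and their sums are given with the other marker lists. Markers of leukocytes differed widely: the 8 B cell markers summed to 19.6 FPKM in KOb, 20.9 FPKM in KOa and 230.002 FPKM in FFa. In bulk samples, fewer cells of a type and less RNA per cell cannot be told apart.

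The loci lie on 7 chromosomes, so no gene of the set neighbours another. Coordinates are those of the deposited table in build mm10 (GRCm38), with starts counted from 1, and the strand and gene class are those of GENCODE M21. Fam159b, which RefSeq now calls Shisal2b and which encodes a predicted membrane protein of the Shisa-like group, lies at chr13:104845283-104863893 on the minus strand. Nccrp1, whose product carries the F-box-associated domain that binds glycoproteins in related F-box proteins, lies at chr7:28543596-28547254 on the minus strand. Entpd3, the gene of an enzyme that hydrolyses extracellular nucleoside triphosphates and is best known from neurons and pancreatic islets, lies at chr9:120539818-120568326 on the plus strand. Podxl, the gene of podocalyxin, a sialomucin of the CD34 family found on podocytes, endothelium and blood progenitors, lies at chr6:31519493-31563937 on the minus strand. Abhd6, the gene of a serine hydrolase that breaks down monoacylglycerols including an endocannabinoid, lies at chr14:8002902-8056555 on the plus strand. D330045A20Rik, now Radx in RefSeq, encodes a single-stranded DNA-binding protein that in human cells acts at replication forks, and lies at chrX:139480367-139554580 on the plus strand. These 6 genes are protein coding. 1700097N02Rik, at chr17:30622441-30626905 on the minus strand, is a long non-coding RNA that GENCODE classes as arising from a bidirectional promoter.

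RefSeq promoter entries of build GRCm38.p6 were found for 5 of the 7 genes, leaving out Nccrp1 and Podxl. Over the 250 bases before the start, the ratio of observed to expected CpG dinucleotides was 0.234 for Fam159b, 0.374 for D330045A20Rik, 0.448 for 1700097N02Rik, 0.510 for Entpd3 and 0.887 for Abhd6, against a median of 0.374 over 32851 promoter entries. A second start of Abhd6 had a ratio of 0.939. The Fam159b promoter, of the lowest ratio, and that of the first Abhd6 start, of a high one, are shown to let the spread be seen, 5′ to 3′ on the strand of the gene, with each CG in capitals. The Fam159b window is chr13:104863894-104864143 on the minus strand and the Abhd6 window is chr14:8002638-8002887 on the plus strand.
Fam159b: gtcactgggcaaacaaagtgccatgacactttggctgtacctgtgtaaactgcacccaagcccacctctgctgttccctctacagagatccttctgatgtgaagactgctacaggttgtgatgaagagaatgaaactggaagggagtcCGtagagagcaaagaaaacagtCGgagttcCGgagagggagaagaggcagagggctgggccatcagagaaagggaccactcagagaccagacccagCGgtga
Abhd6: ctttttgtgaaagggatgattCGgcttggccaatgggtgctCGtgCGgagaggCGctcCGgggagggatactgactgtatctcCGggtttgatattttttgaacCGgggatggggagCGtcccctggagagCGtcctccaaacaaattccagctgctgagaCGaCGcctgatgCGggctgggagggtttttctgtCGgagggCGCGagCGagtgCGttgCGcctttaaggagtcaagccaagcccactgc

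The Fam159b window holds 4 CG dinucleotides and the Abhd6 window 18, so the density of CG differs widely among these genes. A set of 4 short motifs, none contained in another, was searched on both strands in the same windows. CACCC, the core of sites bound by KLF factors such as the erythroid KLF1, was present for Fam159b, Entpd3 and the first start of Abhd6, and in 52.0% of all promoter entries. TGCCGC, the core recognised by ZFP57, a KRAB zinc finger protein that recruits TRIM28, was found in none of the 6 windows and in 8.68% of all entries. The GATA site AGATAA was likewise in none of the 6 and in 9.99% of all entries. The same held for the TATA box letters TATAAA, present in 12.4% of all entries. No match says only that these letters are not in these windows.

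By their deposited loci, 1700097N02Rik and Dnahc8, the gene of an axonemal dynein heavy chain that RefSeq now calls Dnah8, start back to back. These loci are separated by 30 bases at chr17:30626906-30626935, shown because both genes differed between mutants and control. GENCODE draws transcripts of Dnahc8 across 1700097N02Rik, so the gap holds for the deposited loci only. The gap reads, on the minus strand with each CG in capitals, as follows.
Gap: caaaggaagttgggCGgtggctcagcCGtt

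In control cells 6 of the 7 genes were close to 0. Their FPKM values in FFa were 0.0530 for Abhd6, 0.0633 for Entpd3, 0.0972 for D330045A20Rik, 0.110 for Podxl, 0.126 for Fam159b and 0.127 for Nccrp1. 1700097N02Rik does not match the description of near-silent, since its FPKM in FFa was 1.58, which ranked 7009th of 23285 genes. The other 6 ranked between 12151st and 14684th. How many fragments stand behind values this low is unknown, which limits the precision of every ratio to FFa.

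Fam159b reached 29.5 FPKM in KOb and 66.7 FPKM in KOa, against 0.126 FPKM in FFa. In KOb it ranked 1110th of all genes and in KOa 561st, so a gene close to 0 in the control stood among the better expressed in both mutants. Its log2 ratio to FFa in the authors' deposited table was 7.87 ± 1.14 in KOb and 9.05 ± 1.14 in KOa. The ± after a log2 ratio is here and below the standard error implied by the authors' test statistic, not a spread over libraries. By this ratio Fam159b was 3rd of 10551 genes with a finite tested ratio in KOb and 1st of 10681 in KOa.

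Nccrp1 stood at 9.41 FPKM in KOb and 17.2 FPKM in KOa, against 0.127 FPKM in FFa. These are 74.2 and 136 times the control value, with log2 ratios in the authors' deposited table of 6.21 ± 1.16 in KOb and 7.09 ± 1.15 in KOa. GENCODE places Nccrp1 inside the span of Samd4b on the same strand. The deposited locus of Samd4b, in contrast, is not among those within 100 kb of Nccrp1. Samd4b itself was at 3.11 FPKM in KOb, 5.34 FPKM in KOa and 4.22 FPKM in FFa, and was not called against FFa in the authors' deposited table (q = 0.0947 in KOb and 0.195 in KOa).

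1700097N02Rik stood at 28.9 FPKM in KOb and 24.4 FPKM in KOa, against 1.58 FPKM in FFa. It stood higher in FFa than the other genes and was 18.4 and 15.5 times the control value, and its log2 ratios in the authors' deposited table, 4.20 ± 0.48 in KOb and 3.96 ± 0.48 in KOa, had the smallest standard errors of the 7. GENCODE draws transcripts of Glo1 (same strand) and of Dnahc8 (opposite strand) across its body. Their deposited loci do not overlap it, lying 9.78 kb away for Glo1 and 30 bases away for Dnahc8. The annotation and any counting by strand are unstated in the labels, so whether fragments are shared among these genes is unknown.

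Podxl stood at 7.05 FPKM in KOb and 2.84 FPKM in KOa, against 0.110 FPKM in FFa. Its log2 ratio in the authors' deposited table was 6.00 ± 0.77 in KOb and 4.69 ± 0.78 in KOa. Entpd3 stood at 1.71 FPKM in KOb and 2.44 FPKM in KOa, against 0.0633 FPKM in FFa. The log2 ratios of Entpd3 in the authors' deposited table were 4.76 ± 1.14 and 5.27 ± 1.14 in KOb and KOa.

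Abhd6 was the lowest of the 7 in KOb and D330045A20Rik the lowest in KOa. Abhd6 stood at 1.04 FPKM in KOb and 1.06 FPKM in KOa, against 0.0530 FPKM in FFa, and D330045A20Rik at 1.91 FPKM in KOb and 0.644 FPKM in KOa, against 0.0972 FPKM in FFa. The authors' deposited table gives Abhd6 log2 ratios of 4.29 ± 1.45 in KOb and 4.33 ± 1.45 in KOa, the least certain of the set. For D330045A20Rik the authors' deposited table gives 4.30 ± 0.97 in KOb and 2.73 ± 1.01 in KOa. With 0.644 FPKM in KOa, D330045A20Rik ranked 8673rd there and stayed below the usual limit of 1 FPKM for an expressed gene.

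**Figure D1:**
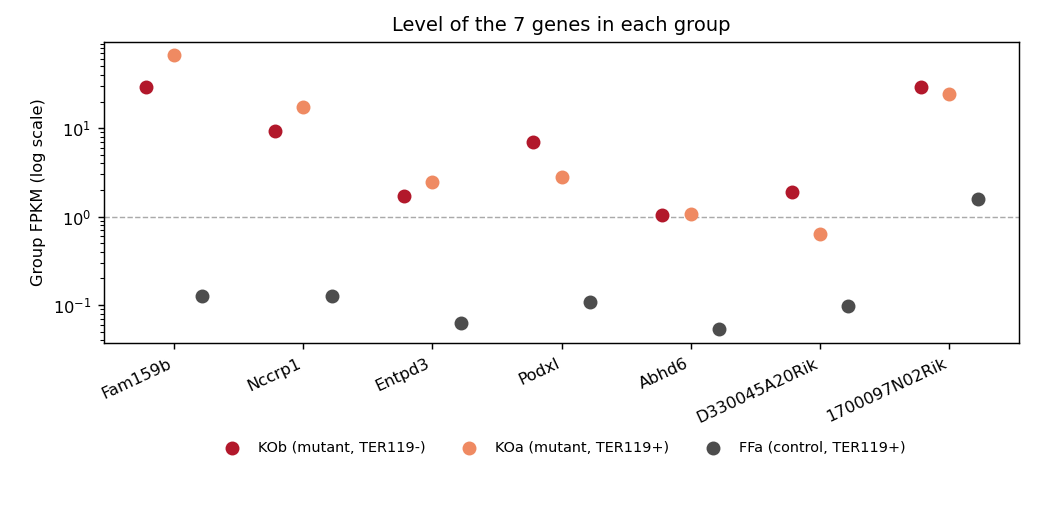
Group FPKM (log axis) of the 7 genes in KOb, KOa and FFa; each point is the authors' single value for a group, and the dashed line marks 1 FPKM. Every mutant point lies above the FFa point of the same gene, FFa points lie at 0.127 FPKM or lower except 1700097N02Rik at 1.58 FPKM, and D330045A20Rik in KOa is the only mutant point below 1 FPKM.

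Per length, the order of levels in KOb was Fam159b, 1700097N02Rik, Nccrp1, Podxl, D330045A20Rik, Entpd3 and Abhd6. In KOa it was Fam159b, 1700097N02Rik, Nccrp1, Podxl, Entpd3, Abhd6 and D330045A20Rik. Without values per library, no neighbours in these orders can be shown to differ beyond their spread. All 7 passed the authors' test at q below 0.05 in both comparisons with FFa, where 12.8% of the tested genes were called higher in KOb and 7.99% in KOa (28.0% and 22.1% in either direction). These comparisons chose the genes and share the FFa libraries, so nothing is read from that count. At q below 0.01, 5 of the 7 in KOb and 4 in KOa would pass, leaving out Fam159b and Abhd6 in both and D330045A20Rik in KOa. Taking the statistic as a standard normal value leaves out D330045A20Rik in KOa (q = 0.0844).

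A numerical version of near-silent was also applied to the whole table. Of 15243 genes below 1 FPKM in FFa, 2408 were tested in both comparisons with FFa. Of these, 78 reached at least 1 FPKM in both mutants and were called higher in both in the authors' deposited table. In the other direction, 99 genes below 1 FPKM in FFa were called lower in both, with no condition on their mutant levels. The 78 had to reach 1 FPKM as well, so these counts cannot be compared directly. The 78 included Fam159b, Nccrp1, Entpd3, Podxl and Abhd6. 1700097N02Rik fell outside through its 1.58 FPKM in FFa and D330045A20Rik through its 0.644 FPKM in KOa. The median of the 78 genes was 2.03 FPKM in KOb, 1.94 FPKM in KOa and 0.519 FPKM in FFa, so Fam159b and Nccrp1 lay far above the typical gene of this kind and Abhd6 below it. At least 5 FPKM in both mutants was reached by 8 of the 78, of which Fam159b and Nccrp1 are 2.

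**Figure D2:**
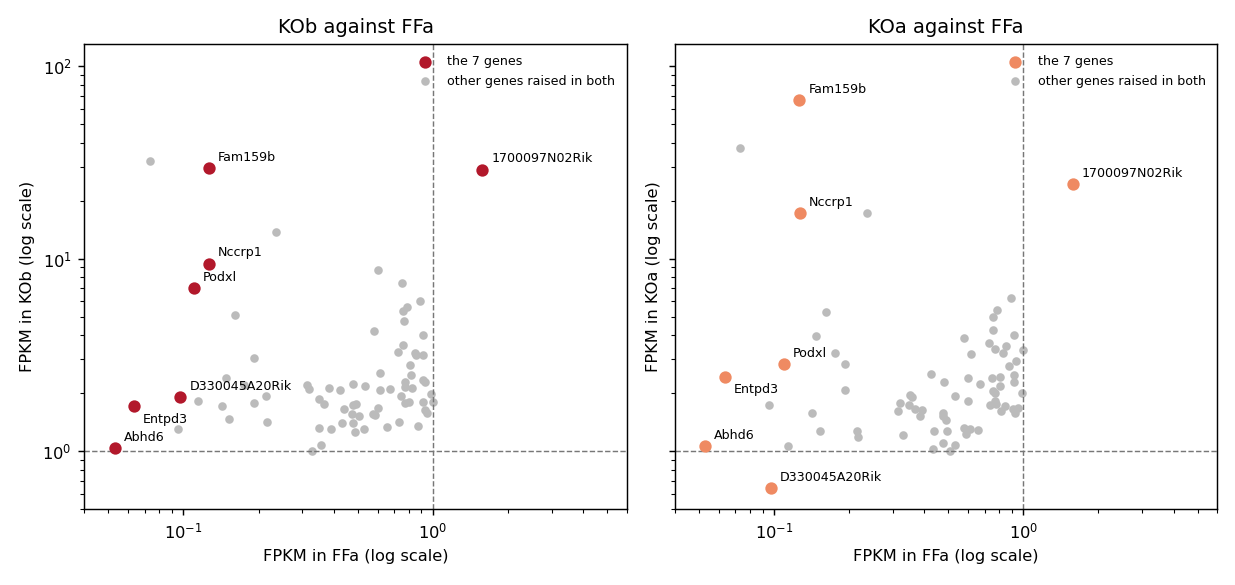
FPKM in KOb (left) and KOa (right) against FPKM in FFa, log axes, for the 7 genes (coloured) and for the other genes below 1 FPKM in FFa that reached 1 FPKM and were called higher in both mutants (grey; genes listed at 0 in FFa are not drawn); dashed lines mark 1 FPKM. Fam159b, at 29.5 FPKM in KOb and 66.7 FPKM in KOa, lies near the top, while 1700097N02Rik lies right of the vertical line.

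The comparison of KOb with KOa asks whether the 2 mutant populations differ in these genes, and it was not used to choose them. Podxl and D330045A20Rik were higher in KOb than in KOa, and Fam159b and Nccrp1 were lower. Podxl was 2.48 times as high in KOb, with a log2 ratio of 1.31 ± 0.32 in the authors' deposited table, and D330045A20Rik 2.97 times as high, with a ratio of 1.57 ± 0.47 there. Fam159b had a log2 ratio of -1.18 ± 0.26 and Nccrp1 of -0.87 ± 0.31 in the authors' deposited table, that is 0.442 and 0.545 of the KOa level. For each of these 4 genes the authors' deposited table lists its smallest q, 0.000619. So 4 of 7 were called, 2 higher and 2 lower, against 16.2% of all tested genes, 10.0% higher and 6.19% lower. The same 4 were called with q adjusted within this comparison (background 14.2%) and at q below 0.01 (background 8.44%). Samd4b, whose span in GENCODE holds Nccrp1, was also lower in KOb than in KOa. Its log2 ratio was -0.78 ± 0.32 (q = 0.000619) in the authors' deposited table. The deposited Samd4b locus does not overlap Nccrp1, and any part of Samd4b in the Nccrp1 value was not tested.

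The other 3 genes did not pass. Entpd3 had a log2 ratio of -0.51 ± 0.38 (q = 0.0919), Abhd6 of -0.04 ± 0.56 (q = 0.956) and 1700097N02Rik of 0.24 ± 0.26 (q = 0.391) in the authors' deposited table. The 95% intervals from the implied standard errors run from -1.26 to 0.23 for Entpd3, from -1.14 to 1.06 for Abhd6 and from -0.28 to 0.76 for 1700097N02Rik, so a change of about the size seen in Nccrp1 lies inside the first 2. When the authors' statistic was taken as a standard normal value, Nccrp1 lost its call (q = 0.0601, adjusted over all tested results) and the other 3 calls held, with 2.70% of all tested genes called. Dividing by the summed FPKM of each group moves all genes by 0.95 between KOb and KOa, because the sum was 659009 in KOb and 1275908 in KOa, and Nccrp1 would then stand at 0.0787 where the median gene stands at 1.00. Globin genes made up 53.3% of the sum in KOb and 76.3% in KOa. With globin genes left out of the sum, Nccrp1 stood at -0.90 and the median gene at 0.02.

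**Figure D3:**
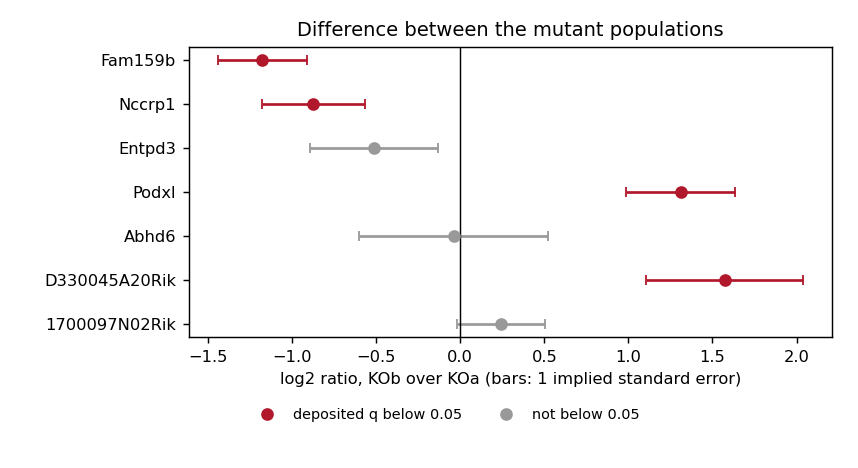
log2 ratio of KOb over KOa for the 7 genes, with bars of 1 implied standard error; red points have a deposited q below 0.05 and grey points do not. Fam159b at -1.18 and Nccrp1 at -0.87 lie left of 0, and Podxl at 1.31 and D330045A20Rik at 1.57 lie right of it.

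Markers of other cells moved between the groups as well, and their counts stand against the shares of all tested genes. These were 12.8% higher and 15.2% lower in KOb against FFa, and 7.99% higher and 14.1% lower in KOa against FFa. In KOb against KOa they were 10.0% higher and 6.19% lower. Of 12 megakaryocyte markers, 4 were called higher and 2 lower of 8 tested in KOb against FFa, and 4 higher and 1 lower of 8 in KOa against FFa. Those called higher were Pf4 (18.3 FPKM in KOb, 22.9 FPKM in KOa and 3.85 FPKM in FFa), Gp1ba (7.04, 5.88 and 1.19 FPKM), Itga2b (4.55, 3.76 and 1.04 FPKM) and Gp5 (2.22, 0.742 and 0.213 FPKM, with KOb, KOa and FFa in this order each time). In the same order, Gp1bb (1.36, 1.44 and 3.98 FPKM) was called lower in both mutants, and Vwf (0.367, 0.563 and 0.604 FPKM) in KOb only. The list summed to 59.3 FPKM in KOb, 71.4 FPKM in KOa and 39.6 FPKM in FFa, and 6 of the 12 were below 1 FPKM in every group. Gp9, the highest (24.4, 34.8 and 27.8 FPKM), was not called against FFa. The 11 other markers summed to 34.9 FPKM in KOb, 36.6 FPKM in KOa and 11.8 FPKM in FFa.

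Of 10 stem and early progenitor markers, 3 of 7 tested were higher and none lower in KOb against FFa, namely Kit, Meis1 and Cd34. In KOa against FFa, 1 of 6 was higher, Kit, and 1 lower, Myb. In KOb against KOa, 2 of 7 were higher, Kit and Myb. Kit, the stem cell factor receptor gene, stood at 2.36 FPKM in KOb, 0.751 FPKM in KOa and 0.399 FPKM in FFa. Myb stood at 8.57 FPKM in KOb, 3.61 FPKM in KOa and 7.48 FPKM in FFa. It was not called in KOb against FFa (q = 0.482 in the authors' deposited table). The list summed to 263 FPKM in KOb, 325 FPKM in KOa and 321 FPKM in FFa, most of it Lmo2, and the 9 other markers summed to 14.3 FPKM in KOb, 7.14 FPKM in KOa and 9.25 FPKM in FFa. Of 9 erythroid markers in the table, all tested, 3 were lower and none higher in KOb than in KOa. Against FFa, 4 of the 9 were lower in KOb and 1 in KOa, and none was higher. The erythroid list summed to 2878 FPKM in KOb, 4494 FPKM in KOa and 5523 FPKM in FFa.

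Macrophage markers summed to 33.8 FPKM in KOb, 59.1 FPKM in KOa and 87.0 FPKM in FFa. Against FFa, 7 of 7 tested were lower in KOb and 4 of 7 in KOa, and none was higher. Granulocyte markers summed to 12785 FPKM in KOb, 15652 FPKM in KOa and 47675 FPKM in FFa, mostly S100a8, with 5 lower of 7 tested in KOb and 4 lower of 7 in KOa, while Mpo, an early granule gene, was called higher at 27.3 FPKM in KOb and 21.7 FPKM in KOa, against 8.15 FPKM in FFa. Of 9 endothelial and stromal markers, 8 were below 1 FPKM in every group, and their sum was 1.80 FPKM in KOb, 2.13 FPKM in KOa and 2.50 FPKM in FFa. Podxl is also known from progenitors, megakaryocytes and endothelium, and the part of these cells in its level, and in that of the other 6 genes, was not tested.

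Genes near the 7 were examined next, since the neighbours' values did not choose the set. The deposited loci of 25 other genes lie within 100 kb of one of the 7, and 14 of them were tested against FFa. In KOb, 7 of the 14 were higher and 1 lower than in FFa, where 12.8% and 15.2% of all tested genes were called in these directions. In KOa, 6 of the 14 were higher and 1 lower, where the shares over all tested genes were 7.99% and 14.1%. The median log2 ratio of the 14 was 0.43 in KOb and 0.19 in KOa, beside -0.01 and -0.08 over all tested genes. The neighbours of 1 gene share a region, and both comparisons share the FFa libraries, so these are not separate observations. Each locus is given with the values of both comparisons side by side.

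Beside Fam159b, both tested neighbours were higher. Srek1ip1, whose product binds a splicing regulator, lies 6.62 kb away and stood at 9.74 FPKM in KOb and 10.8 FPKM in KOa, against 2.30 FPKM in FFa. Its log2 ratio in the authors' deposited table was 2.08 ± 0.37 in KOb and 2.23 ± 0.37 in KOa (q = 0.000619 in each). Cwc27, which encodes a spliceosomal cyclophilin and lies 28.3 kb away, stood at 4.82 FPKM in KOb and 5.10 FPKM in KOa, against 1.99 FPKM in FFa, and its log2 ratios of 1.27 ± 0.39 and 1.36 ± 0.39 had the same q in the authors' deposited table. In GENCODE these neighbours overlap each other on opposite strands. On the other side Rgs7bp, 83.3 kb away, was at 0.0449 FPKM in KOb, 0.133 FPKM in KOa and 0.0354 FPKM in FFa and was not tested by the authors.

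Around 1700097N02Rik, Dnahc8 and Glo1 were higher. Their deposited loci lie apart from it, but GENCODE draws transcripts of both across its body. The part of shared fragments in these values was not tested. Dnahc8 stood at 2.19 FPKM in KOb and 1.62 FPKM in KOa, against 0.314 FPKM in FFa, with log2 ratios in the authors' deposited table of 2.80 ± 0.38 and 2.37 ± 0.38 (q = 0.000619 in each). Glo1, the gene of glyoxalase, which detoxifies methylglyoxal, lies 9.78 kb away and stood at 91.0 FPKM in KOb and 133 FPKM in KOa, against 59.7 FPKM in FFa. Its log2 ratios in the authors' deposited table were 0.61 ± 0.32 in KOb (q = 0.00963) and 1.16 ± 0.32 in KOa (q = 0.000619). Btbd9, 46.2 kb away, was at 0.428 FPKM in KOb, 0.483 FPKM in KOa and 0.518 FPKM in FFa and did not pass in either.

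Beside D330045A20Rik the only listed neighbour, Rnf128, which encodes a ubiquitin ligase, lies 8.76 kb downstream on the same strand. It stood at 1.18 FPKM in KOb and 0.622 FPKM in KOa, against 0.0957 FPKM in FFa. The authors' deposited table gives log2 ratios of 3.63 ± 1.19 in KOb (q = 0.00776) and 2.70 ± 1.23 in KOa (q = 0.0272). Its levels in the 3 groups were thus close to those of D330045A20Rik, at 1.91, 0.644 and 0.0972 FPKM in KOb, KOa and FFa, and Rnf128 too was called higher in KOb than in KOa in the authors' deposited table (0.92 ± 0.60, q = 0.0467). Its 95% interval included 0, with a lower bound of -0.25, and the call was lost with q adjusted within the comparison (q = 0.0639) and with the statistic taken as a standard normal value (q = 0.494).

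Beside Abhd6, Rpp14, which encodes a ribonuclease P subunit and lies 23.8 kb downstream on the same strand, was higher. It stood at 2.07 FPKM in KOb and 1.31 FPKM in KOa, against 0.612 FPKM in FFa, with log2 ratios of 1.76 ± 0.55 (q = 0.000619) and 1.09 ± 0.58 (q = 0.0224) in the authors' deposited table. Pxk, 41.7 kb from Abhd6, did not pass in either mutant, with log2 ratios of -0.25 ± 0.35 in KOb and -0.49 ± 0.35 in KOa in the authors' deposited table. Dnase1l3 on the other side was not tested.

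No tested neighbour of Nccrp1 or Podxl was called higher. Of the 3 tested near Nccrp1, Gmfg, an actin regulator of blood cells 96.7 kb away, was lower, at 5.64 FPKM in KOb and 4.93 FPKM in KOa, against 10.4 FPKM in FFa (log2 ratios -0.88 ± 0.41 and -1.07 ± 0.42 in the authors' deposited table). Sycn, only 1.39 kb from Nccrp1, was at 0.294 FPKM in KOb and 0.2997 FPKM in KOa, against 1.01 FPKM in FFa, and did not pass (q = 0.263 and 0.286 in the authors' deposited table). Mkln1, the single neighbour of Podxl, was at 4.29 FPKM in KOb, 4.66 FPKM in KOa and 5.19 FPKM in FFa and did not pass either. Near Entpd3, the ribosomal protein gene Rpl14 passed in KOb (q = 0.0209) and not in KOa (q = 0.744) in the authors' deposited table, at 507 FPKM in KOb, 379 FPKM in KOa and 355 FPKM in FFa, and its q between the mutants was 0.0627 in the authors' deposited table. When the statistic was taken as a standard normal value, the neighbours called higher were 5 in KOb (Srek1ip1, Cwc27, Dnahc8, Rnf128 and Rpp14; background 3.63% higher, 9.55% either way) and 4 in KOa (Srek1ip1, Cwc27, Dnahc8 and Glo1; background 2.52% higher, 7.48% either way). With q adjusted within each comparison the counts of called neighbours were the 8 in KOb and 7 in KOa given above (background 29.9% and 22.1%), and at q below 0.01 they were 7 and 5 (background 18.2% and 14.1%).

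**Figure D4:**
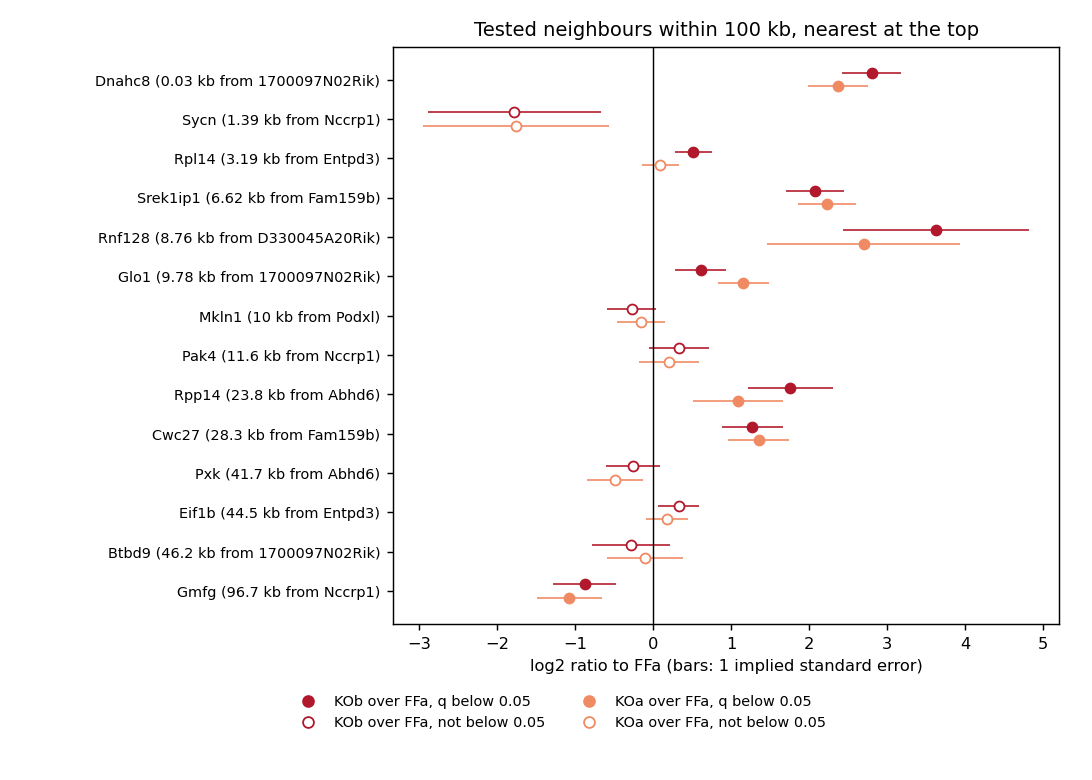
log2 ratio to FFa of the 14 tested neighbours within 100 kb, in KOb (dark red) and KOa (orange), with bars of 1 implied standard error; filled points have a deposited q below 0.05, and the label gives the gap to the named gene. Filled points right of 0 number 7 for KOb and 6 for KOa, with Rnf128 (3.63 in KOb, 2.70 in KOa) farthest right, and Gmfg (-0.88 and -1.07) is filled and left of 0.

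Relatives and partners of the coding genes were called in both directions. Of the 36 genes in the 5 family lists, 35 were in the table; 3 were called higher and 5 lower of 16 tested in KOb, and 1 higher and 4 lower of 18 tested in KOa. Over all tested genes the shares were 12.8% higher and 15.2% lower in KOb, and 7.99% and 14.1% in KOa. Among 8 listed Shisa-like genes only Shisa5 was tested, and it was lower, at 11.3 FPKM in both mutants, against 20.6 FPKM in FFa (log2 ratios -0.86 ± 0.33 in KOb and -0.87 ± 0.33 in KOa in the authors' deposited table). Of the F-box-associated relatives of Nccrp1, Fbxo6 was higher, at 7.07 FPKM in KOb and 8.11 FPKM in KOa, against 3.41 FPKM in FFa (1.05 ± 0.43 and 1.25 ± 0.43 in the authors' deposited table).

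Of the 8 ectonucleotidase genes, Entpd1, which encodes CD39, was lower, at 0.301 FPKM in KOb and 0.461 FPKM in KOa, against 0.894 FPKM in FFa. Entpd6 was called higher in KOb, at 0.738 FPKM in KOb, 0.341 FPKM in KOa and 0.259 FPKM in FFa, and its q in KOa did not pass. In the CD34 family, Cd34 stood at 0.887 FPKM in KOb and 0.609 FPKM in KOa, against 0.133 FPKM in FFa, and was called in KOb (q = 0.0439) but not in KOa (q = 0.0902) in the authors' deposited table. Ezr, the gene of ezrin, which ties podocalyxin to the actin skeleton, was lower, at 21.4 FPKM in KOb and 23.1 FPKM in KOa, against 40.7 FPKM in FFa. Slc9a3r1, the gene of an adaptor between them, did not pass against FFa. Of the monoacylglycerol and endocannabinoid genes, none was higher; Daglb, which makes diacylglycerol into monoacylglycerol, was lower in both mutants, at 3.06 FPKM in KOb and 3.17 FPKM in KOa, against 5.01 FPKM in FFa, and Mgll, the main monoacylglycerol lipase gene, was lower in KOb, at 16.0 FPKM in KOb, 20.2 FPKM in KOa and 27.2 FPKM in FFa. Taking the statistic as a standard normal value left Ezr in KOb as the single family gene called against FFa. That is 1 of 16 tested in KOb and 0 of 18 in KOa, where 9.55% and 7.48% of all tested genes were called.

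For each of the 7 genes, the gene of most similar profile was found by Euclidean distance in log2(FPKM + 0.1) over the 3 groups, among 10420 genes tested against FFa in both mutants. Gmpr was nearest to Fam159b (distance 0.925), with 32.2 FPKM in KOb, 37.4 FPKM in KOa and 0.0731 FPKM in FFa. Slc1a4 was nearest to Nccrp1 (0.781), Ffar3 to Entpd3 (0.306), Bambi to Podxl (1.03), Rab40b to Abhd6 (0.497), Perp to D330045A20Rik (0.527) and BC100530 to 1700097N02Rik (1.00). With 3 group values a small distance says only that the levels are alike.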

How the data were processed

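Per the labels' protocols, 9 libraries were made by the NuGEN Encore Complete system from RNeasy-purified RNA. TopHat2 2.0.8b, Bowtie2 2.1.0, Cuffdiff 2.1.1 and build mm10 are named in the submitters' processing notes; the annotation, the filters and any counting by strand are unstated there. The authors deposited 1 table with FPKM per gene and group, the log2 fold change between groups without pseudocount, a test statistic (a score), a p-value and a q-value for 3 comparisons. Recomputed, the q is a Benjamini-Hochberg adjustment over 31813 tested results (largest difference 5.27e-07). The smallest p is 5e-05.

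Computed here with Python 3.11.15 (pandas 2.3.3, scipy 1.17.1): ranks, ratios, the implied standard error (size of the log2 ratio over that of the statistic), 95% intervals of 1.96 such errors, gaps between loci, counts at q below 0.05, promoter features and profile distances. The adjustment code was tested on simulated data. Starts in the table count from 0, as 48.4% of starts equal RefSeq's after adding 1 and 3.15% without.

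The members, lists and tests were chosen with earlier results of these data known. The neighbours and relatives named are those called in at least 1 comparison, at most 3 per family list, or else the nearest or highest; some that did not pass are named to account for each locus. Nothing in the labels ties the 3 libraries of each group to separate animals, so the spread behind the authors' p-values may be technical.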

Additional observations from a re-analysis of the deposited data

Results flagged for a closer look

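These results stood out because the authors' test of the difference between the mutant populations passed, so the difference of each mutant from FFa is unequal in size. Among the 7 genes, the log2 ratio of KOb to KOa in the authors' deposited table was 1.57 for D330045A20Rik, 1.31 for Podxl, -0.87 for Nccrp1 and -1.18 for Fam159b. Of 13 neighbours tested, 2 (15.4%) were called, with a ratio of 0.92 for Rnf128 and -0.55 for Glo1. Of 18 relatives and partners tested, 2 (11.1%) were called. Their ratios were 0.54 for Slc9a3r1, at 6.86 FPKM in KOb and 4.70 FPKM in KOa, and -0.55 for Abhd4, at 11.3 FPKM in KOb and 16.5 FPKM in KOa. Over all tested genes 16.2% were called, so neither list stood above that share. Slc9a3r1 and Rnf128 lost their calls with q adjusted within the comparison (q = 0.0594 and 0.0639). Rnf128, Glo1, Slc9a3r1 and Abhd4 lost theirs at q below 0.01 and with the statistic taken as a standard normal value. The sort gate and the degree of deletion differ together between KOb and KOa and cannot be told apart.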

How the results depend on the processing

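Counts of called genes were recomputed with q adjusted within each comparison, with q below 0.01 and with the statistic taken as a standard normal value. In KOb against KOa, 4 of the 7 genes were called at both q settings and 3 with the normal reading, where Nccrp1 missed (q = 0.0601). Under the normal reading, 5 of 14 tested neighbours were called against FFa in KOb and 4 of 14 in KOa. Of the family genes, 1 of 16 was called in KOb and 0 of 18 in KOa. Over all tested genes the shares were 9.55% and 7.48%. At an unadjusted normal p below 0.05, 7 family genes passed in KOb and 4 in KOa. Between the mutants the normal reading called 0 neighbours and 0 family genes, beside 2.70% of all tested genes. There, 0 and 0 passed at an unadjusted normal p below 0.05. At an unadjusted Cuffdiff p below 0.05, 5 and 4 passed. Between the mutants, q within the comparison left 1 neighbour (Glo1) and 1 family gene (Abhd4) of 2 each, and q below 0.01 left 0 of each (beside 2 and 2 at the deposited q below 0.05). Over all tested genes 14.2% and 8.44% were called at these 2 settings. At q below 0.01, 3 of 18 tested family genes were called in KOa, beside 14.1% of all tested genes. A minimum of 1 FPKM left 5 called of 9 tested family genes in KOb. The share over all genes at this minimum was not computed, so nothing is read from that count. A window of 200 kb gave 5 called neighbours of 27 tested between the mutants, beside 16.2% of all tested genes. Against FFa it gave 8 higher and 2 lower of 27 tested in KOb, beside 12.8% and 15.2% of all tested genes. In KOa it gave 6 higher and 3 lower of 28 tested, beside 7.99% and 14.1%. Within 100 kb the counts higher were 7 of 14 in KOb and 6 of 14 in KOa. The near-silent genes raised in both mutants numbered 38 with an FFa limit of 0.5 FPKM, 156 with 2 FPKM and 8 with a mutant minimum of 5 FPKM. Nccrp1 in KOb against KOa changed sign, to 0.0787, when FPKM was taken as a share of its sum, which moves the median gene to 1.00. With globin genes left out of that sum, Nccrp1 kept its sign, at -0.90. A pseudocount of 1 moved 15 of the 21 log2 ratios by more than their implied standard error, and one of 0.1 moved 4. No paired analysis was possible because the table holds 1 value per group, and leaving out single libraries was not run for the same reason.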

Other observations

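The other 73 near-silent genes raised in both mutants had 323 further neighbours within 100 kb that were neither among these genes nor neighbours of the 7. Of those tested, 34 of 187 (18.2%) were higher in KOb and 13 (6.95%) lower than in FFa, beside 12.8% and 15.2% of all tested genes. In KOa, 38 of 195 (19.5%) were higher and 17 (8.72%) lower than in FFa, beside 7.99% and 14.1%. The median log2 ratio of these neighbours was 0.23 in KOb and 0.15 in KOa, against -0.01 and -0.08 over all tested genes. For the neighbours of the 7 genes the counts called higher were 7 of 14 in KOb and 6 of 14 in KOa. These 14 include Dnahc8 and Rpp14, which are near-silent genes raised in both mutants themselves, and without them, as in the other set, the counts were 5 of 12 in KOb and 4 of 12 in KOa. This comparison was added after the values of the neighbours had been seen, neighbours of 1 gene are not independent, and overlapping genes may share fragments.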
